A study of Homo sapiens with 9 samples.

Results

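Small RNA genes are the rows annotated as snoRNA, snRNA, scaRNA, misc_RNA or miRNA in the authors' filtered expression matrix of ACHN cells, leaving out RN7SK. There were 225 such genes among the 18859 rows of that matrix. They comprised 44 snoRNA, 36 snRNA, 67 misc_RNA and 78 miRNA rows, and 0 scaRNA rows. ACHN is an adherent human renal carcinoma line, here grown in MEM and sequenced as total RNA in 9 libraries. The 3 groups of 3 libraries are vehicle at 0.1% DMSO, 25 nM piericidin A, and 50 nM piericidin A, a compound that blocks complex I of the respiratory chain. Nothing in the labels tells if the piericidin A wells held DMSO too, or if libraries of 1 group came from different cultures, and p-values therefore reflect only the variation among these samples. All libraries come from 1 cell line.

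Small nucleolar RNAs (snoRNAs) sit mostly in introns of other genes and are trimmed from the excised intron. C/D box snoRNAs guide ribose methylation and H/ACA box snoRNAs guide pseudouridylation of ribosomal and spliceosomal RNA, while a few, such as U3, act in cleavage of the ribosomal RNA precursor. Small nuclear RNAs (snRNAs) form the spliceosome, the signal recognition particle (SRP) RNA targets secretory proteins to the endoplasmic reticulum, and Y RNAs bind the Ro protein. MicroRNAs (miRNAs) are cut from hairpins that often lie in introns. The human genome also carries many retrotransposed copies of U6, SRP and Y RNA. The values here count sequenced fragments over each annotated interval, so a miRNA row measures RNA across the hairpin locus and not the mature miRNA.

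The sequences that follow identify the RNAs on which the results turn. The snoRNAs are from GENCODE v29 transcripts (GRCh38). In the C/D box RNAs the capitals mark the C box letters TGATGA and the last D box letters CTGA of the final 20 bases, and in the H/ACA box RNAs they mark the ACA of the final 6 bases. SNORD94 lies at chr2:86135870-86136006 on the plus strand, in an intron of PTCD3. SNORD3A, the U3 RNA, has its transcript at chr17:19188016-19188232 on the plus strand and lies inside no other gene of the matrix; the deposited row spans 699 bases. SNORD17 lies at chr20:17962710-17962946 on the minus strand, in an intron of SNX5. SNORA71C lies at chr20:38429670-38429803 on the minus strand, inside the non-coding host SNHG17.
SNORD94: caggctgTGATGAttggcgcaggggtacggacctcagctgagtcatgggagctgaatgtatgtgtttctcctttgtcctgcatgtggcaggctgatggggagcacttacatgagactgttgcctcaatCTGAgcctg
SNORD3A: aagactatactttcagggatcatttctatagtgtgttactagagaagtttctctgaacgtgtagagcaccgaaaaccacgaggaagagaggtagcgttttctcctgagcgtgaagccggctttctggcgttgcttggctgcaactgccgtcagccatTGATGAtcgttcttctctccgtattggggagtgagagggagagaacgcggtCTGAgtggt
SNORD17: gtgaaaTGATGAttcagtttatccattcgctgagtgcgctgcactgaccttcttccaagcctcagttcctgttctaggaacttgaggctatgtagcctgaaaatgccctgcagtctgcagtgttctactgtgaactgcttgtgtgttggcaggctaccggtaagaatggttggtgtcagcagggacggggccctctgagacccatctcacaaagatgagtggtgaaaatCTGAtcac
SNORA71C: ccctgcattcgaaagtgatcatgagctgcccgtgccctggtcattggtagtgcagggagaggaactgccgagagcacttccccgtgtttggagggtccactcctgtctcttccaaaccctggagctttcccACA
Both C/D letters, searched on the transcript strand, were present in 15 of 19 C/D members with a sequence and in 210 of 278 C/D box genes of the annotation (75.5%). The ACA was present in 14 of 14 H/ACA members with a sequence and in 133 of 147 H/ACA box genes of the annotation (90.5%).

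Most snRNA and misc_RNA members are copies of the functional genes, as an example of a Y RNA row shows. Capitals mark letters that differ from the functional gene in a global alignment, and letters that the copy lacks are not marked. The Y_RNA row ENSG00000201207 lies at chr6:31663288-31663401 on the plus strand (GENCODE v29, GRCh38).
RNY1: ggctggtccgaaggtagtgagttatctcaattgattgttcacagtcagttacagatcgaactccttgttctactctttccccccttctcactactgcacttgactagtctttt
Y_RNA ENSG00000201207: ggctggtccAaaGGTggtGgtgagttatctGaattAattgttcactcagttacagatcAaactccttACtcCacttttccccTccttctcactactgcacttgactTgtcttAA
The 23 SRP RNA rows with a sequence, of 24, were 57.6% to 85.7% identical to RN7SL1, with a median of 77.0%. The 36 Y RNA rows with a sequence, of 37, were 67.5% to 92.9% identical to the closest of RNY1, RNY3, RNY4 and RNY5, with a median of 85.4%. By the gene description in the authors' matrix, 35 of the 36 snRNA rows are pseudogenes.

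Among the miRNA rows, 47 carry a MIR symbol and 31 a clone-based name, and 42 of the 47 had mature sequences in the RefSeq table (GRCh38.p14). Those 60 mature sequences had 59 distinct seeds, the stretch of bases 2 to 8 that pairs with targets. The single shared seed was that of MIR3153 and MIR6739. The sequences shown belong to intronic rows with large or opposite changes, with the seed in capitals.
miR-3189-5p: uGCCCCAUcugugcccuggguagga
miR-3189-3p: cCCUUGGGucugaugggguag
miR-3153: gGGGAAAGcgaguagggacauuu
miR-3972: cUGCCAGCcccguuccagggca
miR-6819-5p: uUGGGGUGgagggccaaggagc
miR-6819-3p: aAGCCUCUguccccaccccag
miR-4263: aUUCUAAGugccuuggcc
A further row with a large change, MIR3687-1, lies in ribosomal DNA at chr21:8208844-8208904 on the plus strand (GENCODE v29, GRCh38).
MIR3687-1: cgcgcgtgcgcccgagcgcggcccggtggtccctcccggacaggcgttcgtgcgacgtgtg

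Over the rows of the filtered matrix libraries held 24365472 to 29245674 fragments, recovered from the deposited values. The 50 nM libraries lay at 24365472 to 26395689 and the DMSO libraries at 26806226 to 29245674. Fragments outside that matrix were not recovered. Small RNA genes were shallowly covered: the median gene averaged 6.78 fragments per library, 146 genes averaged under 10 and 79 at least 10. Gene lengths ran from 52 to 791 bases with a median of 103. The filtered matrix holds only genes above 0 in all 9 libraries. Of the 225, 222 had at least 0.5 FPKM, a fragment count scaled to gene length and library depth, in at least 3 libraries and were tested, and 18 of these 222 reached that level in fewer than 3 libraries outside the 50 nM group. SNORD116-7, SNORD3B-2 and RN7SL650P were not tested. Renal epithelial markers were present in every library, with PAX8 at 66.0 to 93.5 FPKM, and the endothelial markers PECAM1, CDH5 and VWF reached at most 0.02 FPKM. Over all rows, replicate pairs differed by a chi-square of 1.67 to 7.52 per degree of freedom, except the pairs with 25 nM replicate 3, at 14.35 and 16.33, which stood apart. Over the small RNA genes it was the pairs with 50 nM replicate 2 that stood apart, at 18.92 and 15.4, where the other pairs lay at 0.99 to 2.69. Without the 7 rows in ribosomal DNA described later, all pairs of small RNA genes lay at 0.95 to 1.59. In such bulk samples, fewer cells of a type and less RNA per cell cannot be told apart.

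At 50 nM piericidin A small RNA genes of every large class were higher than in DMSO. Of the 222 tested, 120 rose and 6 fell at an adjusted p under 0.05, which is 54.1% and 2.7%. Of all 15541 tested genes 60.7% changed, 29.2% upward and 31.5% downward. Their median log2 fold change was 1.23, against 0.00 over all tested genes. The rise exceeded 2-fold for 113 of the risen genes and 4-fold for 48. With no filter on low values, 105 of all 225 rose and 5 fell, where 17.5% of all genes rose. Without 50 nM replicate 2, 112 of the 222 rose and 6 fell, where 26.2% of all tested genes rose. At 25 nM, 60 rose and 14 fell against DMSO, where 52.0% of all genes changed, 26.3% upward and 25.8% downward, so the share that rose (27.0%) was near the background and the share that fell (6.3%) was below it. The median at 25 nM was 0.55, against 0.02 over all tested genes. Without 25 nM replicate 3, 52 of the 222 rose and 8 fell at 25 nM, where 24.7% of all tested genes rose, so the rises were again near the background. Both comparisons share the DMSO libraries.

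The libraries of the groups stood apart for many of these genes. All 3 libraries at 50 nM exceeded all 3 of DMSO in 121 of the 222, and lay below them in 8, where the libraries of 33.9% and 36.5% of all tested genes were entirely higher and entirely lower. Relative to the DMSO mean of each gene, the median small RNA gene stood at 0.02, 0.04 and -0.04 in the DMSO libraries. It stood at 0.60, 0.63 and 0.57 at 25 nM and at 1.36, 1.18 and 1.25 at 50 nM. No 2 groups overlapped in this median. Members averaging at least 10 fragments had a median log2 fold change of 1.37 at 50 nM against DMSO. Of these, 56 of 79 were higher (70.9%, against 29.2% of all tested genes) and 3 lower. Members under 10 fragments had a median of 1.18. That average includes the 50 nM libraries, so genes that rose reach 10 fragments more easily. These medians are therefore not independent of the rise.

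**Figure D1:**
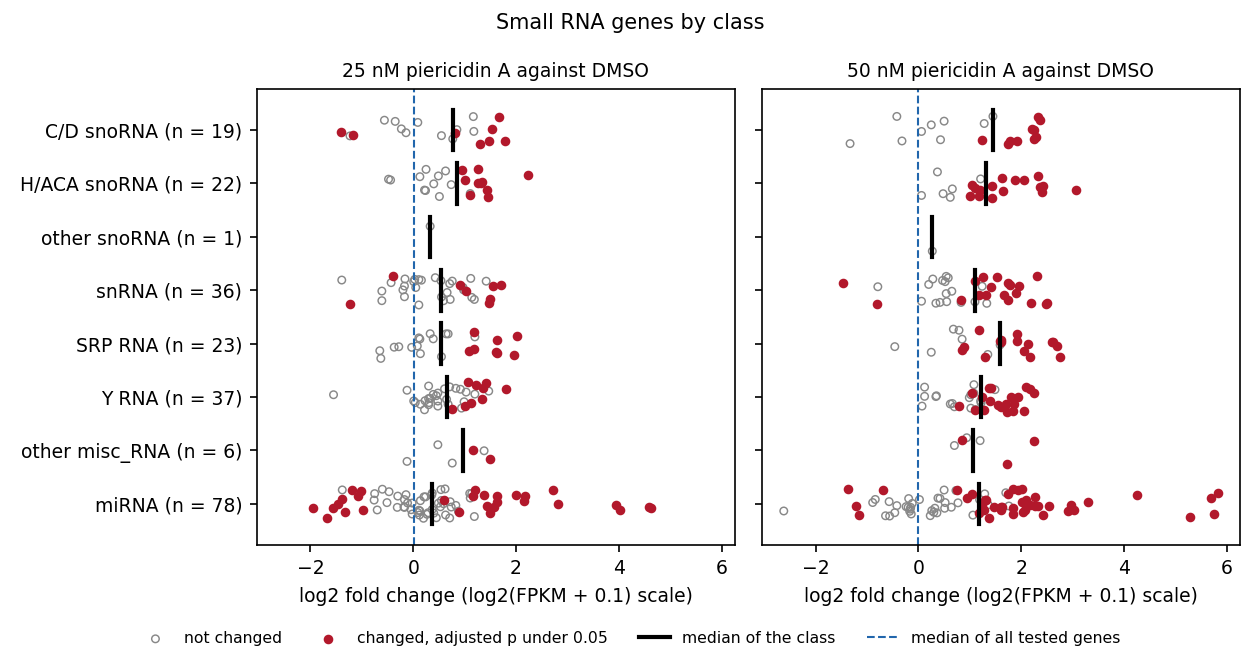
Log2 fold change of each tested small RNA gene (x axis, on the log2(FPKM + 0.1) scale) by class (y axis), at 25 nM against DMSO on the left and 50 nM against DMSO on the right. Filled points passed an adjusted p of 0.05, bars are class medians and the dashed line is the median of all tested genes; at 50 nM the medians of the large classes lie between 1.11 and 1.59.

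C/D box snoRNAs rose at 50 nM in 10 of 19 tested genes (52.6%) and fell in 0, against 29.2% and 31.5% of all tested genes. Their median log2 fold change was 1.45. SNORD3A is U3, the RNA that base-pairs with the precursor of ribosomal RNA during its first cleavages. Its row had 24, 27 and 25 fragments in DMSO, 86, 62 and 107 at 25 nM, and 112, 113 and 164 at 50 nM. Every 50 nM library thus exceeded every DMSO library, and the change was 2.32 ± 0.21 (log2, standard error; adjusted p = 2.88e-05). U3 has near-identical gene copies, so its reads may be divided among them. SNORD94, a methylation guide for the U6 snRNA, had 13, 11 and 10 fragments in DMSO, 29, 34 and 27 at 25 nM, and 57, 42 and 60 at 50 nM. These 3 groups did not overlap, and SNORD94 rose by 2.25 ± 0.15 at 50 nM (adjusted p = 4.04e-06). SNORD83A, in an intron of the ribosomal protein gene RPL3, had 21, 23 and 30 fragments at 50 nM, against 5, 5 and 6 in DMSO (2.21 ± 0.24, adjusted p = 9e-05).

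SNORD17, the C/D box snoRNA with the most fragments, did not pass the test at either dose. It had 82, 78 and 104 fragments in DMSO, 76, 98 and 78 at 25 nM, and 87, 93 and 80 at 50 nM. All 3 groups overlapped, and the difference at 50 nM was 0.06 ± 0.11 (adjusted p = 0.658). The single snoRNA of neither box class, snoU109 in BCAP29, also overlapped between groups, with 32, 19 and 42 fragments at 50 nM against 28, 30 and 20 in DMSO (0.27 ± 0.32, adjusted p = 0.492). The 5 SNORD116 rows lie together inside SNHG14, and of these SNORD116-18, named after its values were seen, passed the test at 50 nM on 2, 4 and 7 fragments, against 1, 1 and 1 in DMSO. The 13 tested C/D box snoRNAs inside a coding gene on its strand had 8 rises (61.5%, against 29.2% of all tested genes) and a median of 1.74. The 6 others, mostly SNORD116 rows of the 1 host SNHG14, had 2 rises (33.3%) and a median of 0.06. In the 50 nM libraries the median of those 6 was -0.5, 0.17 and 1.05, so the value of 0.06 is uncertain. The split by location differed by class and was not tested. For H/ACA box snoRNAs the medians were 1.32 inside and 1.32 for the others, and for snRNA rows 0.83 and 1.24. The inside medians were higher for SRP RNA (1.92 against 0.82), Y RNA (1.42 against 1.06) and miRNA rows (1.3 against 0.42).

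H/ACA box snoRNAs rose at 50 nM in 16 of 22 genes (72.7%) and fell in 0, against 29.2% and 31.5% of all tested genes. Their median was 1.32. SNORA71C had 32, 28 and 21 fragments at 50 nM, against 3, 3 and 3 in DMSO, a rise of 3.07 ± 0.37 (adjusted p = 0.000179). SNORA71A and SNORA71B, which share the host SNHG17 with it and were named after their values were seen, rose by 2.41 and 2.43. SNHG17 itself averaged 5.13 ± 0.888 FPKM at 50 nM and 2.28 ± 0.093 FPKM in DMSO (SD, n = 3), a rise of 1.13 ± 0.10. SNORA33, in an intron of the ribosomal protein gene RPS12, had 7, 6 and 8 fragments in DMSO, 22, 14 and 17 at 25 nM, and 33, 19 and 26 at 50 nM. Its rise at 50 nM was 1.88 ± 0.22 (adjusted p = 0.000125), while RPS12 differed by 0.07 ± 0.08 (adjusted p = 0.462). SNORA2A, SNORA5C and SNORA11 rose by 2.33, 1.20 and 1.01 at 50 nM. SNORA73B, a U17 RNA that acts in cleavage of the ribosomal RNA precursor, had 8, 17 and 13 fragments at 50 nM, against 3, 8 and 6 in DMSO (1.18 ± 0.43, adjusted p = 0.0424). The 50 nM and DMSO libraries met at 8 fragments and separated only once scaled for depth. The call was lost with no filter on low values, and without 50 nM replicate 2 or 3 or DMSO replicate 1 or 3.

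**Figure D2:**
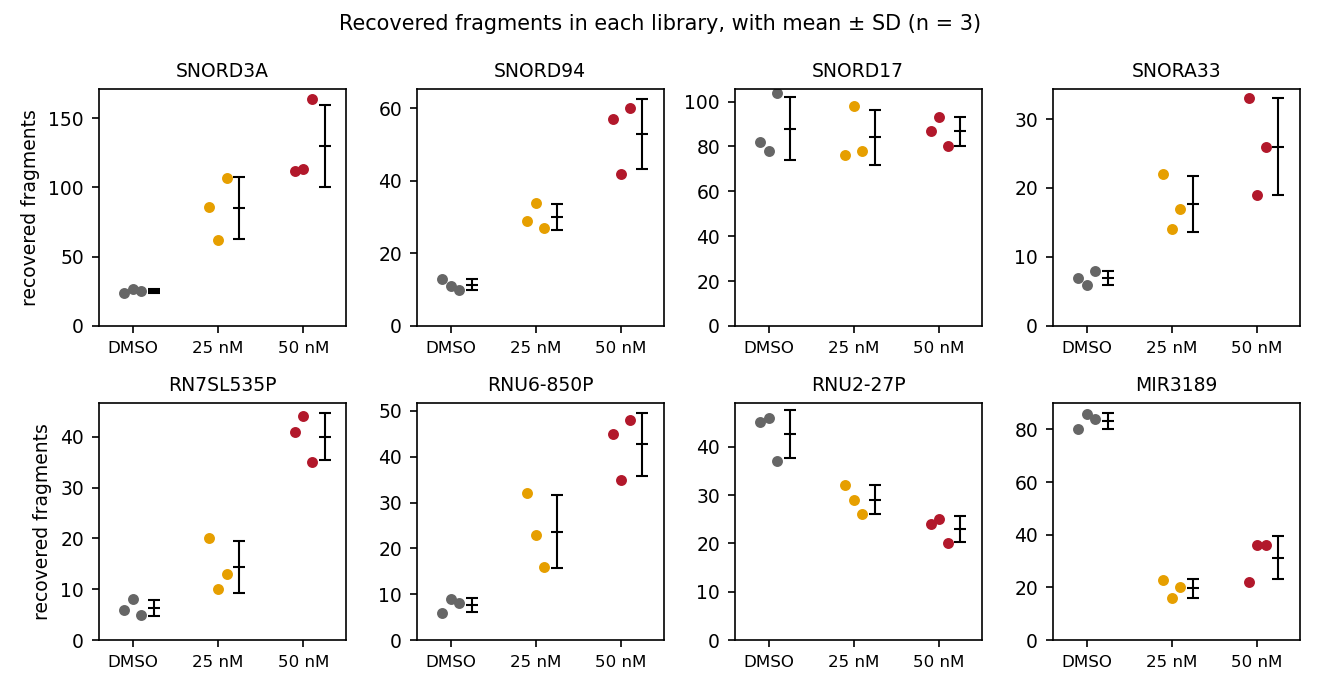
Recovered fragments (y axis, linear from 0) in each library of DMSO, 25 nM and 50 nM (x axis) for 8 small RNA genes, with the mean ± SD of 3 libraries beside the points. SNORD3A, SNORD94, SNORA33, RN7SL535P and RNU6-850P lie higher at 50 nM than in DMSO, SNORD17 overlaps across the groups, and RNU2-27P and MIR3189 lie lower.

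Among snRNA rows 17 of 36 (47.2%) rose at 50 nM and 2 (5.6%) fell, against 29.2% and 31.5% of all tested genes. The median of these rows was 1.11. They include 21 U6, 5 U7, 3 U1, 3 U2, 2 U4, 1 U4atac and 1 U6atac rows. RNU6-850P, a U6 copy on the strand opposite to MSH5, had 6, 9 and 8 fragments in DMSO, 32, 23 and 16 at 25 nM, and 45, 35 and 48 at 50 nM, with no overlap between the groups. It rose by 2.51 ± 0.24 at 50 nM (adjusted p = 5.28e-05). MSH5, a meiotic gene of the mismatch repair family, rose by 1.95 ± 0.11 over the same contrast. RNU1-106P, a U1 copy inside the non-coding gene PVT1, had 29, 38 and 32 fragments at 50 nM, against 11, 12 and 9 in DMSO (1.66 ± 0.18, adjusted p = 6.05e-05). RNU2-27P fell: it had 45, 46 and 37 fragments in DMSO, 32, 29 and 26 at 25 nM, and 24, 25 and 20 at 50 nM. Every 50 nM library lay below all others, while 25 nM and DMSO overlapped once scaled for depth. The change at 50 nM was -0.81 ± 0.14 (adjusted p = 0.000896). The other snRNA row that fell, RNU6-531P, rested on 2, 1 and 1 fragments at 50 nM, against 3, 4 and 6 in DMSO, and was named after its values were seen. Of 25 functional snRNA, snoRNA, SRP, Y, vault, RNase P and RNase MRP RNA genes looked for, only SNORD3A and SNORA73B were among the 225. With these included, 7 of the 25 had a row in the authors' full FPKM table.

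SRP RNA rows rose at 50 nM in 16 of 23 (69.6%) and fell in 0, against 29.2% and 31.5% of all tested genes. Their median was 1.59. RN7SL535P, in an intron of the caspase gene CASP2, had 6, 8 and 5 fragments in DMSO, 20, 10 and 13 at 25 nM, and 41, 44 and 35 at 50 nM. Its groups did not overlap, and the rise at 50 nM was 2.60 ± 0.26 (adjusted p = 4.69e-05), where CASP2 rose by 0.34 ± 0.07. RN7SL381P, in an intron of GSE1, had 78, 59 and 51 fragments at 50 nM, against 9, 24 and 15 in DMSO (2.06 ± 0.33, adjusted p = 0.000897). RN7SL834P, in an intron of the nuclear body gene SP100, had 14, 22 and 17 fragments at 50 nM, against 7, 8 and 6 in DMSO. At 25 nM RN7SL834P had 6, 8 and 7 fragments, which overlaps DMSO. The Metazoa_SRP row ENSG00000280816, opposite to the enolase gene ENO1, had 27, 37 and 31 fragments at 50 nM, against 23, 16 and 23 in DMSO, and did not pass the test (0.68 ± 0.39, adjusted p = 0.164).

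Y RNA rows rose at 50 nM in 20 of 37 (54.1%) and fell in 0, against 29.2% and 31.5% of all tested genes. Their median was 1.22. The log2 fold change was positive in 37 of 37, where it was positive in 7824 of all 15541 tested genes. The row ENSG00000201207, printed above, had 5, 5 and 3 fragments in DMSO, 16, 14 and 12 at 25 nM, and 20, 17 and 18 at 50 nM. Both doses lay entirely above DMSO, and the changes were 1.80 ± 0.20 at 25 nM and 2.10 ± 0.20 at 50 nM. Row ENSG00000207425, opposite to NPIPA1, had 47, 41 and 52 fragments at 50 nM, against 25, 34 and 26 in DMSO (0.79 ± 0.14, adjusted p = 0.00135). Row ENSG00000281789, opposite to CCDC65, rose by 2.05 ± 0.27, while CCDC65 rose by 1.16 ± 0.15. Rows ENSG00000200170 in ANAPC16 and ENSG00000200090 in FNBP4 rose by 1.71 and 1.27. Among 6 other misc_RNA rows 3 rose (50.0%, against 29.2% of all tested genes). RN7SKP16, a pseudogene of 7SK RNA in an intron of PHC2, had 26, 18 and 36 fragments at 50 nM, against 5, 5 and 5 in DMSO (2.25 ± 0.56, adjusted p = 0.00817). RN7SKP80 rose by 1.73, and RN7SKP275 rose by 0.84 with a call that was lost without 50 nM replicate 1 or DMSO replicate 2 or 3.

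Of 78 microRNA rows 38 rose and 4 fell at 50 nM, which is 48.7% and 5.1% against 29.2% and 31.5% of all tested genes, with a median of 1.19. At 25 nM 19 rose and 10 fell, and the 24.4% that rose is near the 26.3% of all tested genes, while the 12.8% that fell is below the 25.8% of all. MIR3189 lies in an intron of GDF15, a stress-induced cytokine gene of the TGF-beta family. The row had 80, 86 and 84 fragments in DMSO, 23, 16 and 20 at 25 nM, and 22, 36 and 36 at 50 nM. Every treated library lay below every DMSO library, with changes of -1.94 ± 0.20 at 25 nM (adjusted p = 0.000138) and -1.37 ± 0.20 at 50 nM (adjusted p = 0.000523). GDF15 moved the other way, averaging 507 ± 31.3 FPKM at 50 nM and 415 ± 12 FPKM in DMSO (SD, n = 3), a rise of 0.29 ± 0.06 (adjusted p = 0.00229). Relative to GDF15 the MIR3189 row fell by 1.66 on the log2 scale at 50 nM (standard error 0.26, adjusted p = 0.000784).

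Further miRNA rows inside coding genes were named after their values were seen. MIR3972, in an intron of the peptidylarginine deiminase gene PADI3, had 86, 92 and 85 fragments in DMSO, 134, 119 and 104 at 25 nM, and 242, 199 and 211 at 50 nM, with no overlap between the groups. It rose by 1.37 ± 0.11 at 50 nM (adjusted p = 8.11e-06), where PADI3 changed by -0.32 ± 0.05. MIR6819, in an intron of the non-muscle myosin gene MYH9, had 32, 24 and 34 fragments at 50 nM, against 3, 1 and 1 in DMSO. It rose by 4.26 ± 0.38, and MYH9 changed by -0.39 ± 0.07. MIR3153, in an intron of the cyclin-dependent kinase subunit gene CKS2, had 41, 39 and 36 fragments at 50 nM, against 9, 2 and 6 in DMSO (3.02 ± 0.48, adjusted p = 0.000817). MIR616, in the stress-response gene DDIT3, had 54, 37 and 43 fragments at 50 nM, against 35, 18 and 32 in DMSO (0.76 ± 0.23, adjusted p = 0.0214), and the call was lost without 50 nM replicate 1. MIR4263, in an intron of BRE, had 15, 19 and 17 fragments at 50 nM, against 25, 31 and 31 in DMSO (-0.69 ± 0.12, adjusted p = 0.000928). The remaining 2 miRNA rows that fell, MIR6090 and AC118282.4, averaged few fragments, and each lost its call without DMSO replicate 1 or 3 or 50 nM replicate 2; MIR6090 also without 50 nM replicate 1 and AC118282.4 also without 50 nM replicate 3.

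In all, 7 miRNA rows lay in ribosomal DNA on chromosome 21, and those upstream of the 18S gene showed the largest rises of all small RNA genes. The ribosomal RNA precursor starts with an external spacer that is removed during maturation and contains the 18S and 28S RNAs further on. FP236383.7, at chr21:8435246-8435359 in the unit RNA45SN1 and 1517 bases before its 18S gene, had 283, 243 and 264 fragments in DMSO, 4920, 5386 and 6843 at 25 nM, and 15542, 15365 and 9308 at 50 nM. MIR3648-1 had 5, 5 and 10 fragments in DMSO, 106, 171 and 186 at 25 nM, and 433, 411 and 284 at 50 nM. MIR3687-1 had 15, 11 and 10 in DMSO, 129, 208 and 201 at 25 nM, and 751, 650 and 486 at 50 nM. In these 3 rows no groups overlapped. At 50 nM against DMSO, FP236383.7 rose by 5.70 ± 0.22 (adjusted p = 6.77e-07), MIR3648-1 by 5.83 ± 0.30 (adjusted p = 2.58e-06) and MIR3687-1 by 5.76 ± 0.25 (adjusted p = 1.38e-06). FP671120.5, 1508 bases before the 18S copy RNA18SP5 and named after its values were seen, had 370, 401 and 185 fragments at 50 nM, against 10, 6 and 8 in DMSO, and rose by 5.28.

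The other 3 rows lie inside 28S sequence. FP236383.9 and FP236383.10 lie in the 28S genes of the units RNA45SN1 and RNA45SN3, and 28S RNA remains in the mature ribosome. FP671120.6 lies in LOC110467529, a shorter 28S copy outside the annotated units. FP236383.9 had 98, 86 and 98 fragments in DMSO, 98, 125 and 103 at 25 nM, and 281, 245 and 150 at 50 nM, and FP671120.6 had 27, 27 and 27 at 50 nM, against 1, 4 and 9 in DMSO; both were named after their values were seen. They rose by 1.28 and 2.97 at 50 nM. FP236383.10 had 1800, 1346 and 1782 fragments in DMSO, 1697, 1969 and 2037 at 25 nM, and 72, 4377 and 51 at 50 nM. Its libraries at 50 nM disagreed, with replicate 2 above and replicates 1 and 3 below every DMSO library, and the difference of -2.62 ± 1.46 did not pass (adjusted p = 0.154). Without 50 nM replicate 2 the same row changed by -4.68 and passed (adjusted p = 5.42e-06). An antisense row across the 18S gene of RNA45SN1, CH507-513H4.3, is no small RNA gene and had 1589, 1539 and 1225 fragments at 50 nM, against 64, 47 and 47 in DMSO. A second such row, CH507-513H4.5 across RNA18SP5, had 18, 105 and 9 fragments at 50 nM, against 4, 5 and 12 in DMSO, and these overlapped; both were chosen after their values were seen. Ribosomal DNA units are near-identical copies, so how the authors' counting divided reads among these rows is uncertain, and the part of ribosomal RNA removal in library preparation was not tested.

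**Figure D3:**
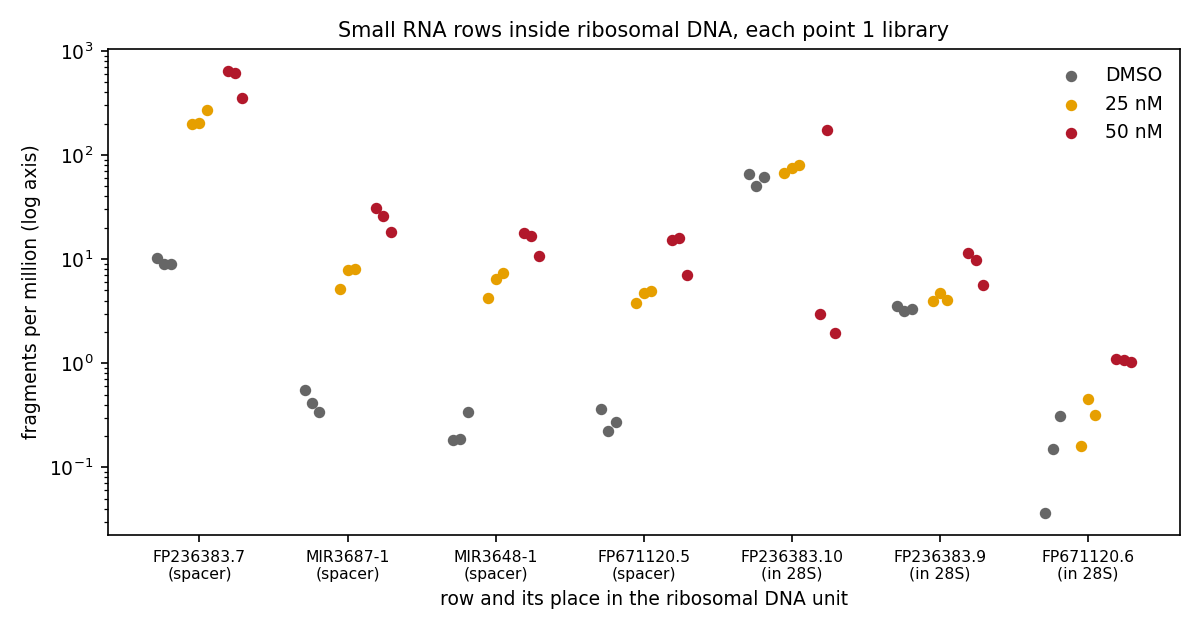
Fragments per 1000000 recovered fragments (y axis, log axis) for the 7 small RNA rows in ribosomal DNA (x axis), each point 1 library of DMSO, 25 nM or 50 nM. The 4 spacer rows are separated by group, while FP236383.10 in the 28S gene has 2 of its 3 libraries at 50 nM far below DMSO and 1 above.

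These rows held most of the fragments of the class. All 225 small RNA genes together took, of each 1000000 fragments recovered, 134 ± 6.69 with DMSO, 403 ± 45.7 with 25 nM and 793 ± 239 with 50 nM piericidin A (SD, n = 3). The 7 ribosomal DNA rows took 72.9 ± 8.76, 321 ± 49.8 and 659 ± 238 of these in DMSO, 25 nM and 50 nM. Without them the sum was 61.0 ± 2.08 in DMSO, 82.4 ± 4.14 at 25 nM and 134 ± 13.2 at 50 nM, and the lowest library at 50 nM, at 125, exceeded the highest at 25 nM, at 85.6. Of the other 215 tested genes, 114 (53.0%) rose and 6 (2.8%) fell at 50 nM, against 29.2% and 31.5% of all tested genes. Their median was 1.21. The H/ACA box snoRNAs summed to 11.9 ± 1.53 per 1000000 at 50 nM and 3.93 ± 0.28 in DMSO, and the SRP RNA rows to 14.8 ± 1.66 at 50 nM and 4.42 ± 0.78 in DMSO.

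Small RNA genes inside other genes had higher medians at 50 nM than those elsewhere. Of the 225, 125 lay inside a coding gene on its strand, 117 of them in an intron, 41 lay inside a coding gene on the opposite strand only, 16 inside another gene type on its strand and 43 elsewhere. At 50 nM, 29.2% of all tested genes rose and 31.5% fell. Inside a coding gene on the same strand 75 of 124 tested genes (60.5%) rose and 2 fell, with a median log2 fold change of 1.31. On the opposite strand 24 of 41 (58.5%) rose and 3 fell (median 1.21). Inside another gene type 9 of 15 (60.0%) rose and 0 fell (median 1.23). Elsewhere 12 of 42 rose and 1 fell (median 0.44), and the 28.6% that rose is near the 29.2% of all tested genes. Without the ribosomal DNA rows, left out after their values were seen, 6 of 35 rose and 1 fell, with a median of 0.34. The 17.1% that rose in this smaller set lies below the 29.2%, but only once those rows are left out. In the 50 nM libraries the medians of that last set were 0.32, 0.17 and 0.46, against 0.02, 0.13 and -0.14 in DMSO. The difference between the locations was not tested, and the strandedness of the libraries was not given in the sources used here, so reads of the 2 strands cannot be told apart.

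Rows that are no small RNA genes but lie inside coding genes on their strand also had positive medians. Sense intronic transcripts, which are long non-coding RNAs inside introns, rose in 115 of 194 (59.3%) and fell in 4 (2.1%) at 50 nM. Over all tested genes 29.2% rose and 31.5% fell. The sense intronic transcripts had a median of 0.95, and summed to 390 ± 37.4 fragments per 1000000 at 50 nM and 210 ± 8.09 in DMSO. Nested genes of any other type on the strand of a coding gene had a median of 0.74 over 477 tested. Coding genes as a whole had a median of -0.09, and the 119 coding hosts of small RNA genes a median of -0.11, with 29 higher and 52 lower. These are 24.4% and 43.7% of the hosts, against 25.7% and 39.9% of all tested coding genes. The part of unspliced host RNA in the small RNA rows was not tested.

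**Figure D4:**
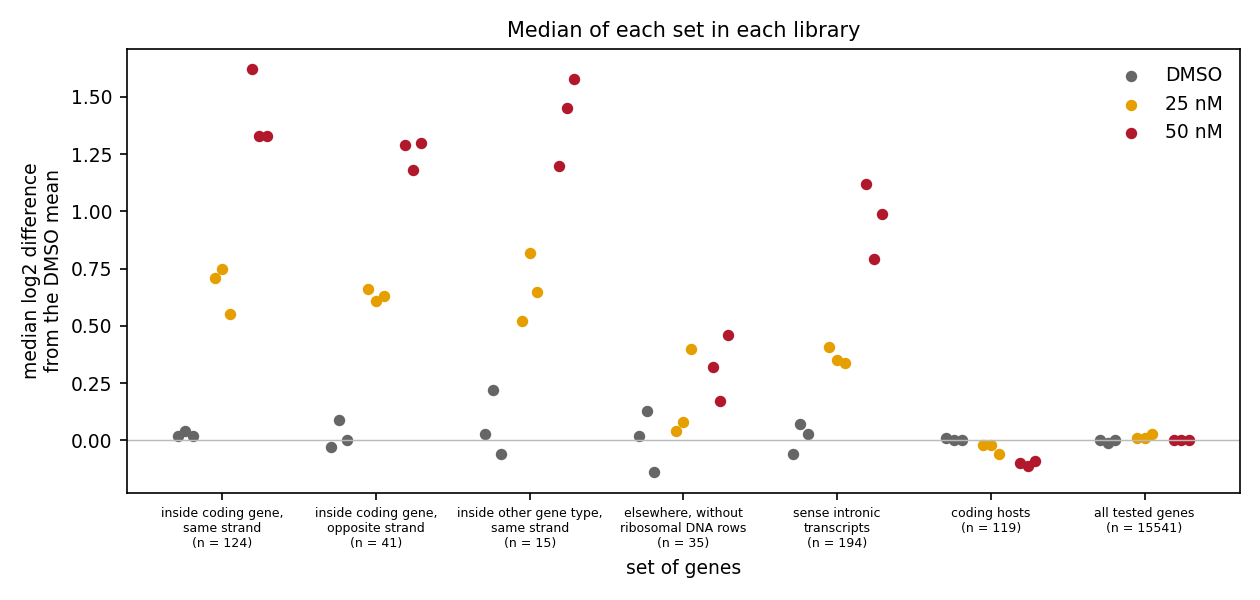
Median log2 difference from each gene's DMSO mean (y axis) over sets of tested genes (x axis, with the number of genes), each point 1 library of DMSO, 25 nM or 50 nM. In the 3 sets of small RNA genes inside other genes the 50 nM libraries lie at 1.18 to 1.62. In those elsewhere, without the ribosomal DNA rows, they lie at 0.17 to 0.46. In sense intronic transcripts they lie at 0.79 to 1.12, and in the coding hosts at -0.11 to -0.09.

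Each nested gene was also compared with its own coding host in the same libraries. At 50 nM against DMSO, 77 of 124 nested small RNA genes rose relative to their host and 2 fell, which is 62.1% higher, where 57.0% of all 558 nested pairs were higher and 6.81% lower. The share is near the background of nested genes of any type. The median difference was 1.46 for small RNA genes, 1.05 for 173 sense intronic transcripts and 0.84 for the 434 nested genes that are not small RNA genes. In 27 of these 124 pairs the small RNA gene rose while its host fell, as in 108 of the 434 pairs of other nested genes. That pattern was thus no more common among small RNA genes. SNORD94 rose by 2.14 ± 0.18 relative to PTCD3, a mitochondrial ribosome protein gene, and SNORD83A by 2.23 ± 0.28 relative to RPL3. SNORD17 differed from SNX5 by -0.13 ± 0.16 (adjusted p = 0.478). MIR3189 and MIR4263 were the 2 that fell relative to their hosts. At 25 nM, 30 of the 124 rose relative to their host and 2 fell, where 27.6% and 5.91% of all nested pairs did, a share of 24.2% that is near the background. Without 25 nM replicate 3, 28 rose and 2 fell relative to their host.

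**Figure D5:**
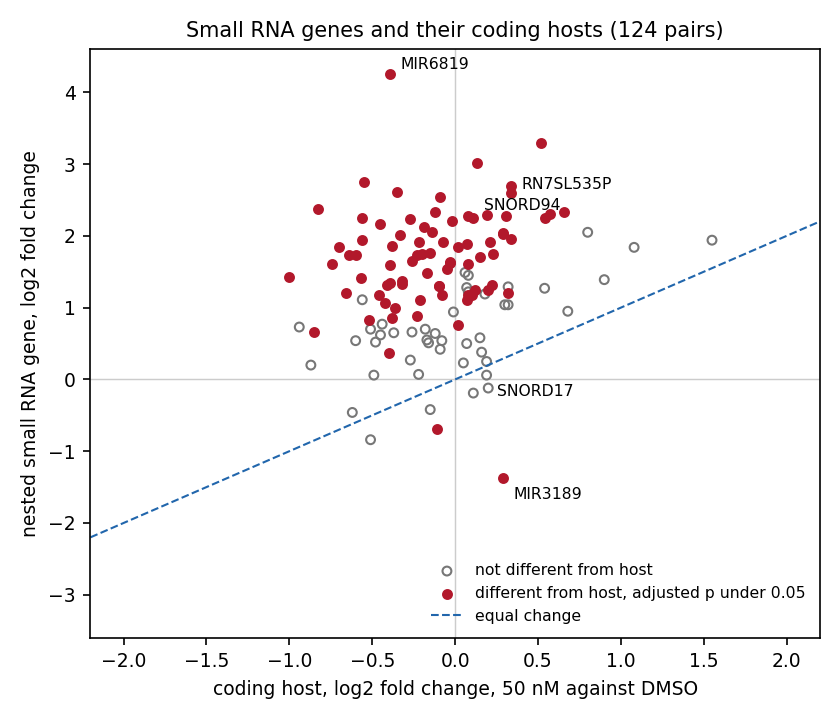
Log2 fold change at 50 nM against DMSO of 124 small RNA genes (y axis) and of the coding gene that holds each on the same strand (x axis). Filled points differ from the host at an adjusted p under 0.05 over all 558 nested pairs, 77 above the dashed line of equal change and 2 below it.

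Between the doses, 53 of 222 small RNA genes were higher at 50 nM than at 25 nM and 1 was lower, where 33.5% of all tested genes changed, 14.7% higher and 18.8% lower. The median log2 fold change was 0.69. It was positive for 192 of the 222, where it was positive for 7487 of all 15541 tested genes. SNORD94 was higher at 50 nM by 0.72 ± 0.15 (adjusted p = 0.00625) and RN7SL535P by 1.40 ± 0.26 (adjusted p = 0.00439), while SNORD3A differed by 0.53 ± 0.21 (adjusted p = 0.0864). RNU2-27P was the gene that was lower. The count of changed genes was 35 without 25 nM replicate 3 and 33 without 50 nM replicate 1, against 54 with all libraries. All of these 35 and 33 were higher at 50 nM, where 15.6% and 9.5% of all tested genes were. For the run without 25 nM replicate 3 the count of the 222 is near that share. Relative to their hosts 27 of 124 were higher at 50 nM than at 25 nM and 0 lower, where 19.5% and 2.51% of nested pairs were. That count rested on the libraries used: it was 1 without 50 nM replicate 1, 2 without replicate 3 and 9 without replicate 2, and 15, 17 and 12 without 25 nM replicates 1, 2 and 3.

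The genes of proteins that make, bind or trim these RNAs are given by list, to be read beside the 29.2% of all tested genes that rose and the 31.5% that fell at 50 nM. With so many genes changed, counts near those shares, such as those of RNA polymerase III, Integrator and SNAPc, and the exosome, are no result about the list. The Sm and LSm proteins, which form rings on snRNAs, rose in 15 of 16 genes at 50 nM and fell in 1, with a median of 0.41. LSM8 and LSM7 rose by 0.62 ± 0.05 and 0.64 ± 0.07, and LSM11 of the U7 particle changed by -0.35 ± 0.11, a fall whose call was lost without 50 nM replicate 1 or DMSO replicate 2 or 3. Of the C/D box core proteins 3 of 4 rose, led by NOP56 (0.55 ± 0.06), and of the H/ACA core 2 of 4, NOP10 (0.42 ± 0.07) and NHP2 (0.29 ± 0.06). The SMN complex, which loads Sm rings, had 0 rises and 3 falls among 10, including GEMIN4 (-0.86 ± 0.07) and DDX20 (-0.45 ± 0.05). Of 13 snoRNP and snRNP assembly factors 3 rose and 6 fell, with TGS1, the cap hypermethylase, at -0.40 ± 0.05 and COIL, the Cajal body scaffold, at -0.54 ± 0.07.

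RNA polymerase III subunits and factors, which transcribe U6, SRP and Y RNA genes, had 10 rises and 9 falls among 23, with GTF3C4 at -1.01 ± 0.06 and GTF3C6 at 0.72 ± 0.06. Integrator and SNAPc, which act at snRNA genes, had 7 rises and 4 falls among 19, with SNAPC4 at 0.86 ± 0.07 and SNAPC3 at -0.67 ± 0.06. The SRP and Ro proteins had 2 rises and 4 falls among 7, with SRP72 at -0.30 ± 0.04, SRP68 at -0.26 ± 0.04 and SRP19 at 0.83 ± 0.20. RNase P and MRP subunits had 3 rises and 0 falls among 9, including POP5 at 0.97 ± 0.08. The microRNA processing list had 1 rise, TARBP2 at 0.50 ± 0.07, and 5 falls among 13 at 50 nM, including AGO1 at -0.38 ± 0.05. At 25 nM this list had 2 rises and 8 falls, with a median of -0.47, where 26.3% and 25.8% of all tested genes rose and fell. Between the doses 6 of its genes were higher at 50 nM and 2 lower, where 14.7% and 18.8% of all tested genes were. The nuclear exosome and trimming list had 8 rises and 7 falls among 21, with the exosome subunit EXOSC8 at 0.82 ± 0.07 and the nuclear exonuclease XRN2 at -0.51 ± 0.04.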

How the data were processed

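Per the labels, total RNA of ACHN cells was sequenced after 0.1% DMSO, 25 nM or 50 nM piericidin A, and samples were grouped by these labels. The authors deposited FPKM for 30673 genes, in a table named for read counts, and, without a pseudocount, log2 FPKM of the 18859 genes that exceed 0 in every library, with position, length and type. The genome was hg38 per the submitters' processing notes. Aligner, counter, annotation release, RNA selection, treatment time and strandedness are not given in the sources used here. No raw counts were used. FPKM times length was a whole multiple of 1 step per library for 100% of the 18859 genes (tolerance 0.01). This gave the recovered fragments of those genes, used for depth and shares. Intervals on single shares were not computed.

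The test was limma 3.58.1 (lmFit, eBayes with trend and robust, R 4.3.3) on log2(FPKM + 0.1) over the 15541 genes that reached 0.5 FPKM in 3 or more libraries, all 9 libraries, group only, two-sided, with Benjamini-Hochberg adjustment over all tested genes and a threshold of 0.05. The pseudocount shrinks fold changes of low genes. Nested genes were tested against their coding host in the same way over 558 pairs; the host is the coding gene that contains the interval on the same strand, with the highest mean FPKM. Exon and intron came from GENCODE v29, which holds 187 of the 225 at the same position, ribosomal DNA units and mature miRNAs from RefSeq (GRCh38.p14), and identities from global alignment in Biopython 1.88. Tested on simulated data over 14604 genes, the 50 nM against DMSO fit recovered 89.6% of genes changed by 1 on the log2 scale. The simulation changed a small random set of all genes and used a fixed spread between libraries, not the observed one. It gives no recovery rate for the shallowly covered small RNA genes.

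Named genes are, per class, the 3 with most fragments, the 3 with the smallest p at 50 nM among those averaging at least 10 fragments with 1 of the other direction where all 3 agree, listed functional RNAs, hosts, and for protein lists the 2 smallest p and 1 of the other direction. Members and lists were chosen with earlier results of these data known. Alternatives varied pseudocount, filter, scaling, variance trend, host annotation, replicate block, libraries, and a fit on recovered fragments (voom). Some sequences and 1 neighbouring gene are not reported here.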

Additional observations from a re-analysis of the deposited data

Results flagged for a closer look

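Some small RNA genes that the filtered matrix leaves out were above 0 in every library at 50 nM and in no DMSO library. Of 1604 such genes in the full FPKM table, typed by GENCODE v29, 109 were above 0 in all 3 libraries at 50 nM and listed at 0 in all 3 of DMSO, and 11 showed the reverse. These are 6.8% and 0.686%, where 4.38% and 0.643% of all 11814 genes outside the matrix did so. The values of the 109 at 50 nM were low, 0.107 to 3.758 FPKM, and many lay under the 0.5 FPKM set for testing. For 25 nM against DMSO the numbers were 38 and 10, or 2.37% and 0.623%, where 1.67% and 1.08% of all genes outside the matrix did so. Per library, 842 to 1046 of the 1604 were above 0 at 50 nM, against 451 to 551 in DMSO. Detection was also higher over the whole FPKM table, with 25482 to 26388 genes above 0 at 50 nM, against 23641 to 24222 in DMSO. Recovered fragments cover only the rows of the filtered matrix, and the part of total sequencing depth in this detection was not tested. The difference between small RNA genes and the rest was not tested. With 3 libraries a group, no test for a library that stands apart was made.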

How the results depend on the processing

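No count or median, and no call of a named gene, reversed direction under any alternative run. Requiring at least 10 fragments on average left 79 small RNA genes. Of these 41, 59 and 35 changed at 25 nM against DMSO, 50 nM against DMSO and 50 nM against 25 nM. The changed genes included 35, 56 and 34 that were higher, where 26.2%, 28.9% and 16.8% of all genes under that filter were. It also left 41 nested genes, of which 21, 31 and 17 changed relative to their host in the same order. The same filter gave medians of 1.62 for genes inside coding genes and 1.22 for the others at 50 nM, and 0.51 for the others at 25 nM. Its average runs over all libraries, the 50 nM libraries included, so genes that rose pass it more easily. A pseudocount of 1 FPKM lowered the medians at 25 nM, at 50 nM and between doses to 0.36, 0.88 and 0.51 inside coding genes and to 0.21, 0.65 and 0.42 for the others, by construction since low values shrink, and gave 41 genes changed relative to the host between doses. Without the ribosomal DNA rows, chosen after seeing the data, small RNA genes took 61.02, 82.4 and 134.06 fragments per 1000000 in DMSO, at 25 nM and at 50 nM.

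Leaving out 1 library at a time, 60 to 70, 109 to 122 and 33 to 47 small RNA genes changed in the 3 comparisons in the same order. The higher ones numbered 52 to 61, 103 to 115 and 33 to 47. Over all tested genes 22.3% to 25.4%, 25.6% to 26.5% and 9.5% to 15.6% were higher in these runs. The medians ran from 1.18 to 1.4 inside coding genes at 50 nM, from 0.93 to 1.11 for the others at 50 nM and from 0.29 to 0.5 for the others at 25 nM. Between doses 1 to 17 genes changed relative to their host. Of 324 results for single named genes, hosts and proteins (1 per gene and comparison), 52 lost a call under at least 1 alternative. Same-numbered samples did not deviate together (correlations of -0.047 to 0.079, 0 of 9 pairs over 0.1). This cannot exclude that same-numbered samples were handled together, on which the labels are silent. With the replicate block 72, 124 and 62 small RNA genes changed, and 17 relative to their host between doses. Of the 72, 124 and 62, the higher ones were 62, 117 and 60, where 25.0%, 28.4% and 13.1% of all tested genes were higher. Depth limits single genes, since 146 of 225 averaged under 10 fragments.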
